A study of Mus musculus with 186 samples.

Results

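Tight junctions seal the space between neighbouring epithelial cells near their apical surface. Claudins are the membrane proteins that form the strands of the seal and set which ions pass, occludin and its MARVEL-domain relatives lie in the same strands, junctional adhesion molecules (JAMs) sit beside them, scaffold proteins such as ZO-1 tie them to actin, and the Par and Crumbs complexes place the junction along the apical to basal axis. In the mammary gland the seal lies between the luminal cells that face the duct lumen, while the basal (myoepithelial) cells form the outer contractile layer.

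The genes described here are 30 mouse genes of this apparatus, a list fixed by name: 16 claudins, 3 strand proteins of the MARVEL family (Ocln, Marveld2, Marveld3), 3 JAMs (F11r, Jam2, Jam3), 4 scaffolds (Tjp1, Tjp3, Cgn, Cgnl1) and 4 polarity genes (Pard3, Pard6b, Prkci, Crb3). All 30 were found among the 25275 genes with a symbol, and 25 of them were among the 14773 genes past the study's low-count filter. They were measured by full-length RNA-seq in single cells of the adult mammary gland, 96 sorted as basal (Lin-CD29hiCD24+) and 90 sorted as luminal (Lin-CD29loCD24+). The mice were FVB/NJ females of 10 weeks with no treatment, and the series counts 8 of them. Capture was by Fluidigm C1, in which a chip isolates 1 cell per site and its cDNA is made in place. Lin- means that cells with the red cell, endothelial and leukocyte surface markers Ter119, CD31 and CD45 were gated out. By the labels, PCR plate A held basal cells, plate C luminal cells and plate B some of each.

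Which mouse a cell came from is not given, so cells are not replicates here and each population is 1 sample. The populations were therefore compared without tests, and no difference below has a replicate check. Cells past the study's depth limits were 72 basal (50 on plate A, 22 on plate B) and 76 luminal (24 on plate B, 52 on plate C), with totals of 69933 to 1968860 reads per basal cell and 105636 to 3226961 per luminal cell. The level of a gene in a population is its summed reads scaled to the summed library totals (CPM), with exact 95% Poisson limits in parentheses, and the ratio is the log2 of luminal over basal CPM after 1 CPM was added to each, which understates the change of low genes. The share of cells with a read was taken after each cell had been thinned to 50000 reads, with exact 95% Clopper-Pearson limits. Without molecular identifiers the reads of a well are not independent molecules, so every interval covers counting error only. A gene is called higher in a population where the ratio passes 1 on the log2 scale in the same direction for the whole set and for plate B by itself, the plate that held both populations. A gene is called shared where both ratios lie between -1 and 1 with at least 1 CPM in each population. These are calls of size and not tests.

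The sorted populations carried their lineage markers. Krt14, the basal keratin, was at 1944 CPM in the basal and 47.5 CPM in the luminal population, and Krt18, a luminal keratin, was at 122 and 3055 CPM. Of 12 endothelial markers, 4 or more had a read in 6 basal cells, all on plate B, and in 4 luminal cells, all on plate C, although CD31 was gated out in the sort. The summed endothelial level ran from 0 to 12189 CPM per basal cell (median 0.653) and from 0 to 3575 CPM per luminal cell (median 3.23), and each of the 12 markers had a read in both populations. Basal cell 90 on plate B had 4291 reads of Krt18 with 1 read each of Krt14 and Acta2, against its label. Values without these wells are given below for some of the ratios they moved, but not for all.

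Most genes of the list that received a call were higher in luminal cells. Of the 30 genes, 15 were higher in luminal cells, where 21.5% of all genes past the filter were. They were 8 claudins (Cldn1, Cldn3, Cldn4, Cldn6, Cldn7, Cldn8, Cldn10, Cldn23) and 7 others (Ocln, Marveld3, Tjp3, Cgn, Cgnl1, Pard6b, Crb3), with ratios from 1.14 to 7.95. Prkci alone was called higher in basal cells, where 10.2% of all genes were, and that call rested on 1 cell, as shown further down. Tjp1 and Marveld2 were called shared, beside 18.2% of all genes, and both calls are lost without 1 basal well. Another 8 genes (Cldn11, Cldn12, Cldn15, Cldn19, F11r, Jam2, Jam3, Pard3) had ratios that differed between the whole set and plate B, as 39.7% of all genes did, and 4 claudins (Cldn2, Cldn9, Cldn18, Cldn22) were under 1 CPM in both populations, as were 10.4% of all genes past the filter. The 15 luminal genes and the 2 shared ones all passed the low-count filter, whereas the 4 low claudins and Cldn11 did not. Over the 25 genes that passed, the median ratio was 2.49, beside 0.18 over all 14773 genes.

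**Figure D1:**
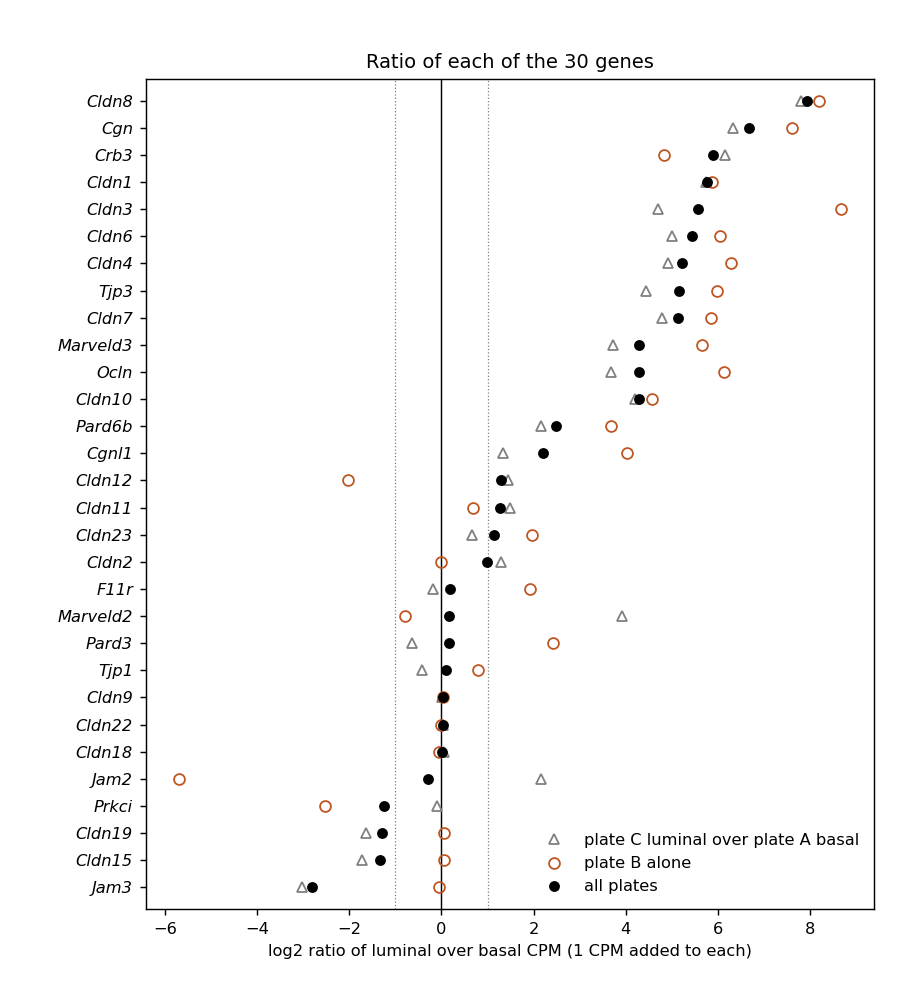
Log2 ratio of luminal over basal CPM (x axis, 1 CPM added) for each of the 30 genes (y axis, sorted), over all plates (filled circles), on plate B alone (open circles) and for plate C luminal over plate A basal cells (triangles). Dotted lines mark -1 and 1. The luminal genes from Cldn8 (7.95) down to Cldn23 (1.14) keep a positive ratio in all 3 comparisons, whereas Cldn12 and Jam2 lie beyond 1 in opposite directions on plate B and between plates C and A.

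Cldn3, Cldn4 and Cldn7 were the claudins seen in the largest shares of luminal cells, and their promoters are shown because all 3 hold the letters CACCTG or, read on the other strand, CAGGTG. This short motif is an E-box of the kind that Snail-family repressors are known to bind. The sequences are RefSeq windows on GRCm38.p6 from 250 bases before to 50 after an annotated start, written on the gene's strand with the motif in capitals.

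Cldn3, chr5:134985964-134986263, plus strand: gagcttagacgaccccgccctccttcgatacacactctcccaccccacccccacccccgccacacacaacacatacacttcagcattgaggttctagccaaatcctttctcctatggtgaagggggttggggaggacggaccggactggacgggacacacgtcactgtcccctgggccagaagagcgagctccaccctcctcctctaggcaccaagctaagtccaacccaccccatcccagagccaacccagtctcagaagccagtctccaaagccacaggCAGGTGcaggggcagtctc

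Cldn4, chr5:134946885-134947184, minus strand: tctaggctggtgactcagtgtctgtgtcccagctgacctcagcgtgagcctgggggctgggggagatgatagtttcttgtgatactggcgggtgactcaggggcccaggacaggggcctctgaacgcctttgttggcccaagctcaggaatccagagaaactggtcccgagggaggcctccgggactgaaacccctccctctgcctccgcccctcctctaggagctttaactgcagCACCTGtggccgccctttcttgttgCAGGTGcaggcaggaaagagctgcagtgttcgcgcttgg

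Cldn7, chr11:69965171-69965470, plus strand: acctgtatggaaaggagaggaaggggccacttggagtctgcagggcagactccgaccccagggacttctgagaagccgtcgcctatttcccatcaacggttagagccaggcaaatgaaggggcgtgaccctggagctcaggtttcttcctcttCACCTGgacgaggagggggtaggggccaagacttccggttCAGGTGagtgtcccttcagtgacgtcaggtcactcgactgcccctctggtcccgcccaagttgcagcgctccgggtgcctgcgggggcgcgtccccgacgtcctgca

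The motif began at position 32 from the start site in Cldn3, at -14 and 12 in Cldn4, and at -97 and -57 in this window of Cldn7, counting the start base as 1 and the base before it as -1. A further RefSeq window of Cldn7, at an earlier start, held none. Of the 24 genes of the list with a window, 11 held the motif in at least 1 window, while 22.6% of all 27025 genes with a window did. It was in 8 of the 12 luminal genes with a window and in 3 of the other 12. The palindrome AACCGGTT, a grainyhead-type motif, was in none of the 24 and in 0.174% of all genes. GGGCGG or its complement CCGCCC, the GC-box, was in 20 of the 24 and in 38.2% of all genes. By window, CACCTG or CAGGTG was in 15 of the 35 windows of the list and in 20.2% of all 32851. The 27025 genes were not limited to those past the low-count filter, nor matched for windows per gene. No enrichment is therefore read from these shares. None of these motifs contains another, a match describes letters only, and binding was not measured. Cldn3 and Cldn4 lie next to each other on chromosome 5, with 39279 bases between them.

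Cldn4 was the claudin seen in most luminal cells. This claudin, a receptor for a bacterial enterotoxin, was at 9.27 CPM (8.63-9.95) in the basal and 382 CPM (378-385) in the luminal population. The ratio was 5.22 (6.29 on plate B, and 8.40 there without basal cell 90). Per luminal cell Cldn4 ran from 0 over a median of 281 to 2504 CPM, and per basal cell from 0 over a median of 0 to 474 CPM. A read was present in 71 of 76 luminal cells (93.4%, 85.3-97.8) and in 3 of 72 basal cells (4.17%, 0.868-11.7). The ranges overlapped through a few basal cells, and 24 luminal cells lay above the highest of them, basal cell 13.

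Cldn3, of the same barrier-forming kind, was at 5.37 CPM (4.89-5.89) in the basal and 304 CPM (301-307) in the luminal population, a ratio of 5.58. On plate B the ratio was 8.67, since 0.107 CPM was found in the 22 basal cells there. Luminal cells ran from 0 over a median of 231 to 2728 CPM and 60 of 76 had a read (78.9%, 68.1-87.5). Unlike Cldn4, it differed between the luminal plates, at 449 CPM on plate B and 235 CPM on plate C.

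Cldn7 is known for a basolateral as well as a junctional position. It was at 5.10 CPM (4.63-5.61) in the basal and 213 CPM (210-215) in the luminal population. The ratio was 5.13 (5.86 on plate B, and 7.98 there without basal cell 90). Luminal cells ran from 0 over a median of 122 to 1615 CPM, and 65 of 76 had a read (85.5%, 75.6-92.5). These 3 claudins were thus present in most luminal cells, but at uneven levels: the 11 highest luminal cells held 50% of the reads of Cldn3 and of Cldn7, and the 15 highest those of Cldn4.

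Cldn8, Cldn10, Cldn1 and Cldn6 were patchier. Cldn8, a claudin of tight epithelia such as the distal nephron, had 4 reads in all 72 basal cells (0.048 CPM, 0.0130-0.122) and 258 CPM (255-261) in the luminal ones, with a ratio of 7.95. Its luminal cells ran from 0 over a median of 9.50 to 2354 CPM, and 43 of 76 had a read (56.6%, 44.7-67.9). In the plot of claudin level by cell the luminal values spread from 0 to above 1000 CPM on both plates. Although its summed level was above that of Cldn7, it was seen in fewer luminal cells (43 against 65).

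Cldn10, a claudin known for isoforms that form ion channels, was at 9.68 CPM (9.02-10.4) in the basal and 208 CPM (206-211) in the luminal population, a ratio of 4.29 (4.56 on plate B). Basal cell 13 held 49.9% of the basal reads, without which the basal level was 4.92 CPM and the ratio 5.15, and 158 of the 179 plate B basal reads lay in the endothelial-marker well 80, and without the endothelial-marker wells the plate B ratio was 6.47. A read was present in 50 of 76 luminal cells (65.8%, 54.0-76.3). The luminal median was 126 CPM with a highest cell of 1639 CPM, and 58 of 76 luminal cells had a read at full depth.

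Cldn1, the barrier claudin of the epidermis, was at 0.464 CPM (0.330-0.634) in the basal and 79.2 CPM (77.6-80.9) in the luminal population, a ratio of 5.78. It had a read in 20 of 76 luminal cells (26.3%, 16.9-37.7), from 0 over a median of 0 to 830 CPM. Cldn6, known from embryonic epithelium, had no read in the basal cells and 42.3 CPM (41.1-43.5) in luminal cells, at least 1187-fold higher with 3 reads over the basal group taken as the floor. It had a read in 17 of 76 luminal cells (22.4%, 13.6-33.4), up to 448 CPM. Both were thus carried by a minority of luminal cells on each plate. Cldn6 lies 137 bases from Cldn9, which had 2 luminal reads and no basal read.

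**Figure D2:**
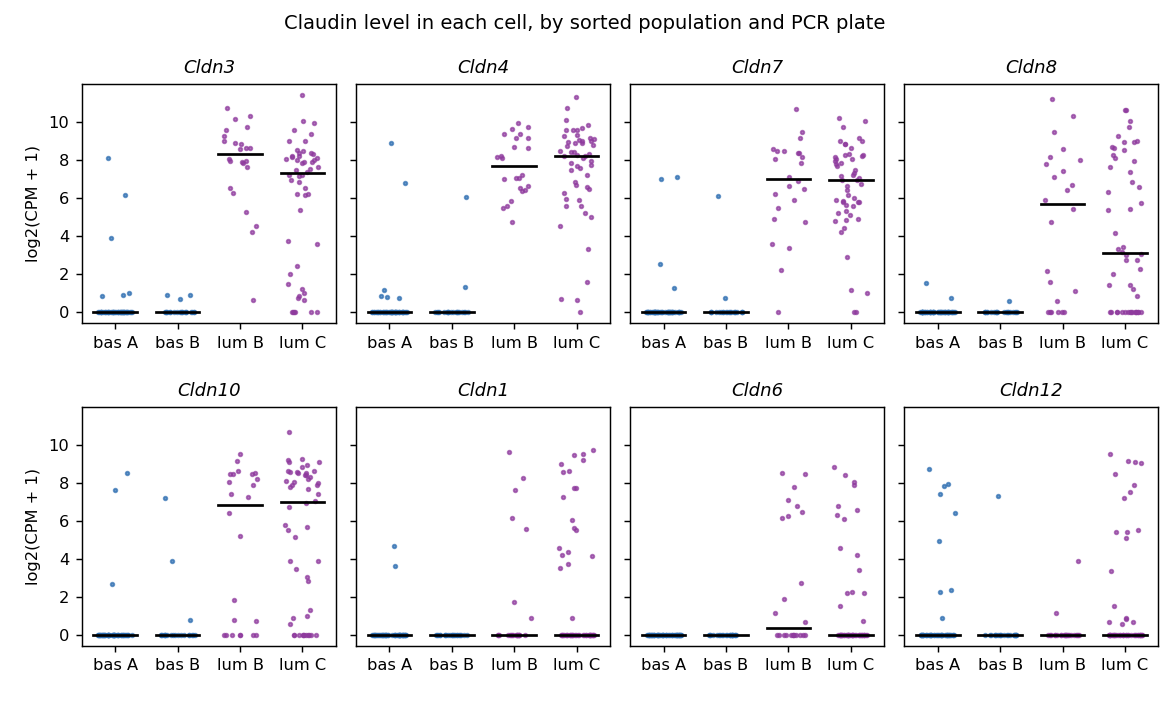
Level of 8 claudins in each cell (points, log2 of CPM + 1 on the y axis) by population and PCR plate (x axis, blue basal, purple luminal), with black bars for the median over cells. Luminal medians of Cldn3, Cldn4 and Cldn7 lie well above 0 on both plates, those of Cldn1 lie at 0, and basal medians of all 8 lie at 0.

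The remaining claudins were seen in fewer cells. Cldn12, a claudin without the usual scaffold-binding tail, was at 19.9 CPM (19.0-20.9) in the basal and 50.7 CPM (49.4-52.0) in the luminal population, a ratio of 1.30. On plate B the direction turned, with 5.96 CPM in the basal and 0.706 CPM in the luminal population and a ratio of -2.03. All 167 plate B basal reads lay in basal cell 80, a well with reads of 9 of the 12 endothelial markers, and without it basal Cldn12 was 0 there and the plate B ratio 0.77. The gene had a read in 6 of 72 basal and 12 of 76 luminal cells, and all 12 of the latter were on plate C. At 50.7 CPM with 26.8% of its luminal reads in the top cell, Cldn12 was neither low nor carried by 1 well. Cldn23 was called higher in luminal cells at 1.67 CPM against 0.214 CPM, and its 18 basal reads lay in 1 cell.

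Cldn11, Cldn15 and Cldn19 each had over 85% of the reads of their higher population in 1 cell. For Cldn11 this was luminal cell 33 with 137 of 160 reads, a well in which 10 of 10 fibroblast markers had a read. For Cldn15 it was basal cell 11 with 132 of 142 reads, and for Cldn19 basal cell 39 with 127 of 146 reads, and 2 and 0 of the 10 fibroblast markers had a read there. Cldn2, the cation-channel claudin of leaky epithelia, had 106 of its 114 luminal reads in luminal cell 25, a well with reads of 10 of the 12 endothelial and 6 of the 8 pericyte markers. What part such transcripts have in these levels was not tested. Cldn9, Cldn18 and Cldn22 had from 0 to 3 reads in each population.

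A luminal cell carried several claudins at once. At 50000 reads per cell the median luminal cell had a read of 5 of the 16 claudins, with a range of 0 to 8, and 51 of 76 cells had from 4 to 6. The median basal cell had 0, with a range of 0 to 4, and 55 of 72 had none. The median was 5 on both luminal plates and 0 on both basal plates. Cldn4 and Cldn7 were both present in 63 of the 76 luminal cells (82.9%), beside 79.9% from the product of their shares, and Cldn3 and Cldn4 in 59 (77.6%, beside 73.8%). Cldn1 and Cldn10 were both present in 12 (15.8%, beside 17.3%).

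**Figure D3:**
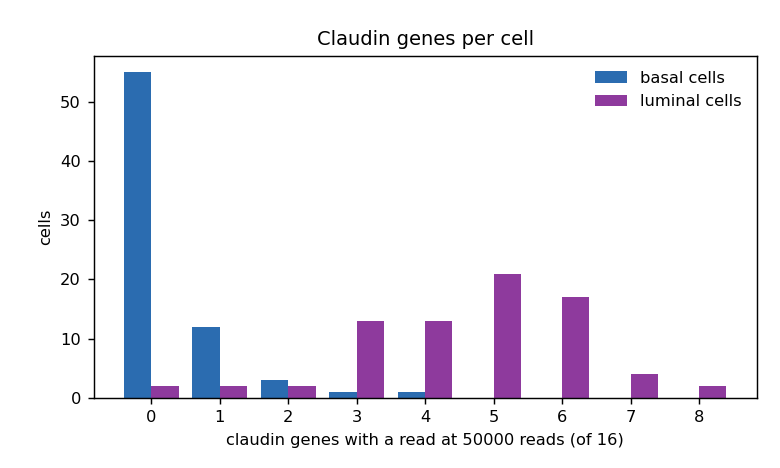
Number of cells (y axis) by the number of the 16 claudin genes with a read after thinning to 50000 reads (x axis), for 72 basal cells (blue) and 76 luminal cells (purple). Basal cells pile up at 0 (55 cells), while luminal cells lie mostly between 3 and 6 with a peak of 21 cells at 5.

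Basal reads of the 6 claudins on the study's list of luminal genes came from few cells. Cldn10 (814 basal reads) and Cldn12 (1678) are not on that list and are not counted here. Of the 72 basal cells, 5 (6.94%, 2.29-15.5) had a read of Cldn1, Cldn3, Cldn4, Cldn6, Cldn7 or Cldn8 at 50000 reads, against 74 of 76 luminal cells (97.4%). Without thinning there were 21 (29.2%), most with only a few reads. The 5 were cells 13, 20, 27 and 32 on plate A and cell 90 on plate B. Cells 13, 20 and 90 together held 82.3% of the basal reads of Cldn3, 99.4% of Cldn4, 97.9% of Cldn7 and 86.3% of Ocln.

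These cells were not alike. Basal cell 13 had 474 CPM of Cldn4, 135 CPM of Cldn7 and 361 CPM of Cldn10 beside 1505 CPM of Krt18 and 471 CPM of Krt14. Basal cell 20 had 271 CPM of Cldn3, 111 CPM of Cldn4, 130 CPM of Cldn7 and 106 CPM of Ocln, beside 914 CPM of Krt18, 581 CPM of Krt14 and 4056 CPM of Acta2, the smooth muscle actin. Both therefore held keratin reads of both lineages, whereas cell 90 held Krt18 (2974 CPM) with Krt14 at 0.693 CPM. Cell 32 had 69.7 CPM of Cldn3 and cell 27 had 24.9 CPM of Cldn1, with Krt18 at 67.9 and 30.8 CPM. Whether wells 13 and 20 held 1 cell or more was not tested. Without cells 13, 20 and 90 the ratios were 7.25 for Cldn3, 8.49 for Cldn4 and 7.59 for Cldn7.

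Among the strand proteins, occludin and Marveld3 were luminal. Ocln was at 1.91 CPM (1.63-2.23) in the basal and 56.3 CPM (54.9-57.7) in the luminal population, a ratio of 4.30 (6.14 on plate B). Luminal cells ran from 0 over a median of 6.23 to 469 CPM, and 29 of 76 had a read (38.2%, 27.2-50.0). Marveld3 was at 0.963 CPM in the basal and 37.7 CPM (36.6-38.8) in the luminal population, a ratio of 4.30, with a read in 23 luminal cells and 1 basal cell.

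Marveld2, tricellulin, seals the corners where cells meet. It was called shared at 43.4 CPM (42.0-44.8) in the basal and 48.8 CPM (47.5-50.0) in the luminal population, a ratio of 0.16. That call rested on basal cell 90, which held 3565 of the 3651 basal reads (97.6%). Without that cell basal Marveld2 was 1.04 CPM and the ratio 4.61. Ocln, its neighbour on chromosome 13 at a distance of 43238 bases, had 86.3% of its basal reads in basal cell 20 and a ratio of 5.50 without that cell. A read of Marveld2 was present in 3 of 72 basal and 25 of 76 luminal cells (32.9%, 22.5-44.6).

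Of the JAMs, F11r, which encodes JAM-A, was abundant in both populations. It was at 184 CPM (181-187) in the basal and 210 CPM (207-213) in the luminal population, a ratio of 0.19. Basal cells ran from 0 over a median of 28.2 to 1415 CPM and luminal cells from 0 over a median of 82.7 to 830 CPM, so the populations overlapped over the whole luminal range. A read was present in 40 of 72 basal (55.6%, 43.4-67.3) and 54 of 76 luminal cells (71.1%, 59.5-80.9). On plate B the ratio was 1.91, because basal F11r was 47.9 CPM there and 252 CPM on plate A. The median number of genes detected per basal cell was 3085 on plate B and 4872 on plate A, and 6 of the 22 plate B cells had the endothelial transcripts. The endothelial-marker wells held 52 of the 1342 basal F11r reads of plate B. Without them basal F11r was 59.5 CPM there and the plate B ratio 1.60. Beyond these values, the part of either in the plate difference was not tested.

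Jam2, known from endothelium, was at 20.7 CPM (19.7-21.7) in the basal and 16.7 CPM (16.0-17.5) in the luminal population. The 6 basal and 4 luminal wells with endothelial markers held 84.8% and 90.0% of its reads, and without them it was 3.41 and 1.75 CPM. On plate B all 1474 basal reads lay in them, and the plate B ratio went from -5.71 to 0.04 without them. Jam3 had 1152 of its 1186 basal reads in basal cell 23, in which none of the 12 endothelial and 2 of the 10 fibroblast markers had a read. Without that cell basal Jam3 was 0.410 CPM.

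Of the scaffolds, Tjp1 was abundant in both populations and the other 3 were luminal. Tjp1, which encodes ZO-1, the scaffold that links the strands to actin, was at 114 CPM (112-116) in the basal and 123 CPM (121-125) in the luminal population, a ratio of 0.10 for the whole set, 0.80 within plate B and -0.43 between plates C and A. Basal cells ran from 0 over a median of 26.0 to 1711 CPM and luminal cells from 0 over a median of 53.1 to 1574 CPM. A read was present in 43 of 72 basal (59.7%, 47.5-71.1) and 54 of 76 luminal cells (71.1%, 59.5-80.9). Over the whole set its reads were spread, with 17.6% of the basal and 13.1% of the luminal reads in the top cell, and the ratio was 0.42 without the wells with endothelial markers. The plate B ratio, and with it the shared call, rested on such wells: they held 2566 of the 3312 basal Tjp1 reads of that plate, 1694 of them in basal cell 71. Without those wells basal Tjp1 on plate B was 34.4 CPM against 206 CPM in luminal cells, a plate B ratio of 2.55, and without cell 71 alone the ratio was 1.77.

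Tjp3, which encodes ZO-3, had 2 basal reads and 35.8 CPM (34.7-36.9) in luminal cells, a fold of 1507 with counting limits of 417 and 12447. It had a read in 14 of 76 luminal cells, and 32.2% of its luminal reads lay in 1 cell. Cgn, cingulin, a junctional link to myosin, was luminal in level and in spread. It was at 0.832 CPM (0.649-1.05) in the basal and 187 CPM (184-189) in the luminal population, a ratio of 6.68 (7.61 on plate B). Luminal cells ran from 0 over a median of 46.4 to 1070 CPM and 44 of 76 had a read (57.9%, 46.0-69.1), while the highest basal cell had 27.8 CPM, a level that 41 luminal cells exceeded.

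Cgnl1, paracingulin, differed less. It was at 29.1 CPM (27.9-30.3) in the basal and 137 CPM (135-139) in the luminal population, with a read in 10 of 72 basal and 45 of 76 luminal cells. The ratio was 2.20 (4.03 on plate B, and 5.04 there without basal cell 90). The basal reads of Cgnl1 were spread over more cells than those of Cgn, with 22 basal cells at full depth against 8. The highest basal cell, at 1233 CPM, lay above every luminal cell.

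Of the polarity genes, Crb3, the epithelial Crumbs protein of the apical membrane, was at 0.689 CPM (0.524-0.891) in the basal and 99.1 CPM (97.3-101.0) in the luminal population, a ratio of 5.89. It was present in 27 of 76 luminal cells (35.5%, 24.9-47.3), and luminal cell 45 held 28.4% of its reads. Pard6b, an adaptor that joins aPKC to Cdc42, was at 1.36 CPM in the basal and 12.3 CPM (11.6-12.9) in the luminal population, a ratio of 2.49, with a read in 10 luminal cells.

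Pard3, the Par complex scaffold, was at 48.7 CPM (47.2-50.2) in the basal and 54.6 CPM (53.2-56.0) in the luminal population, a ratio of 0.16. It had a read in 27 of 72 basal (37.5%, 26.4-49.7) and 26 of 76 luminal cells (34.2%, 23.7-46.0), so that the shares overlapped within counting error. On plate B the ratio was 2.42, and 2.09 there without the wells with endothelial markers. As for F11r, the basal level was lower on plate B (14.5 CPM) than on plate A (65.8 CPM).

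Prkci, an atypical protein kinase C and the enzyme of the complex, was at 68.0 CPM (66.3-69.8) in the basal and 27.9 CPM (27.0-28.9) in the luminal population, a ratio of -1.25 (-2.52 on plate B). Basal cell 85 on plate B held 3924 of the 5723 basal reads (68.6%). Without the top cell of each population the ratio was -0.50 for the whole set. Within plate B it was 4.57 without basal cell 85, and 3.83 without the top luminal cell of that plate as well. Between plates C and A it was -0.09. A read was present in 11 of 72 basal and 17 of 76 luminal cells, shares whose counting intervals overlap (7.88-25.7% and 13.6-33.4%).

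**Figure D4:**
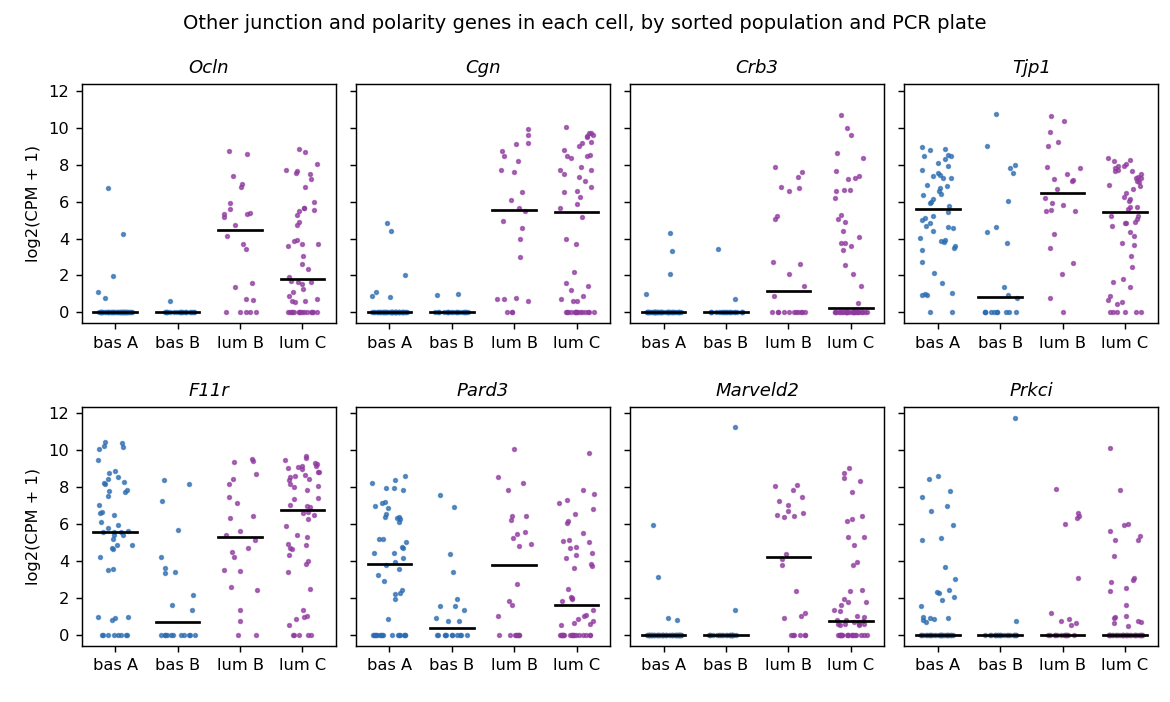
Level of 8 other junction and polarity genes in each cell (points, log2 of CPM + 1 on the y axis) by population and PCR plate (x axis, blue basal, purple luminal), with black bars for the median over cells. Tjp1, F11r and Pard3 are spread over many cells of both populations, Ocln, Cgn and Crb3 mostly over luminal cells, and the basal sums of Marveld2 and Prkci on plate B rest on 1 high point each.

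Per length (RPKM of the summed counts), the luminal order of levels was Cldn3 (241), Cldn4 (211), Cldn7 (146), Cldn10 (144), Cldn8 (109), Crb3 (85.5), F11r (84.6), Cgn (37.1), Cldn6 (28.1) and Cldn1 (24.4), followed by Cgnl1 (20.3), Ocln (17.6) and Tjp1 (17.3). The order of close neighbours is not firm. Cldn3 was at 449 CPM on luminal plate B and 235 CPM on plate C, and Tjp1 was at 206 and 82.9 CPM, spreads larger than the gaps between neighbours in the order. In basal cells F11r led (74.3 RPKM), followed by Tjp1 (16.0), Prkci (15.2) and Marveld2 (12.8), the last 2 with most reads in 1 cell each.

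How uniform a gene was between cells was read against all genes of like level. Among the 467 genes at 300 to 1000 luminal CPM the median share of luminal cells with a read was 82.9% (quartiles 73.7 and 89.5%). Cldn4 at 93.4% lay above the upper quartile and Cldn3 at 78.9% inside the quartiles. Among the 1558 genes at 100 to 300 CPM the median was 59.2% (47.4 and 69.7%): Cldn7 (85.5%), Tjp1 (71.1%) and F11r (71.1%) lay above, and Cldn10, Cgnl1, Cgn and Cldn8 inside. Tjp1 and F11r were close to the upper quartile. The share rises with level, and levels were not matched within a range of CPM. At 30 to 100 CPM the median was 31.6% (22.4 and 40.8%), and Tjp3 (18.4%) and Cldn12 (15.8%) lay below. At 10 to 30 CPM Jam2 (6.58%) lay below the lower quartile of 10.5% and Prkci (22.4%) above the upper one of 19.7%.

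In basal cells F11r, Cgnl1, Cldn12 and Jam2 lay inside the quartiles of their level, and Tjp1 lay at the upper one. Pard3 (37.5%) lay above the upper quartile of 33.3% at 30 to 100 CPM, while Marveld2 (4.17%) and Prkci (15.3%) lay below the lower one of 16.7%. Jam3 (2.78%) lay below the lower quartile of 6.94% at 10 to 30 CPM. These basal shares pool plates A and B, which differed for some genes. F11r was seen in 70% of basal cells on plate A and 22.7% on plate B, Tjp1 in 68% and 40.9%, and Pard3 in 46% and 18.2%. Cgnl1 was at 14% and 13.6%, and Jam2 at 4% and 18.2%. Of the 9 genes of the list at 10 CPM or more in basal cells, 4 (Marveld2, Jam2, Jam3, Prkci) had over 50% of their basal reads in 1 cell, where 20.3% of all genes at that level did. Of the 21 at that level in luminal cells, 0 did, beside 10.9% of all genes.

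**Figure D5:**
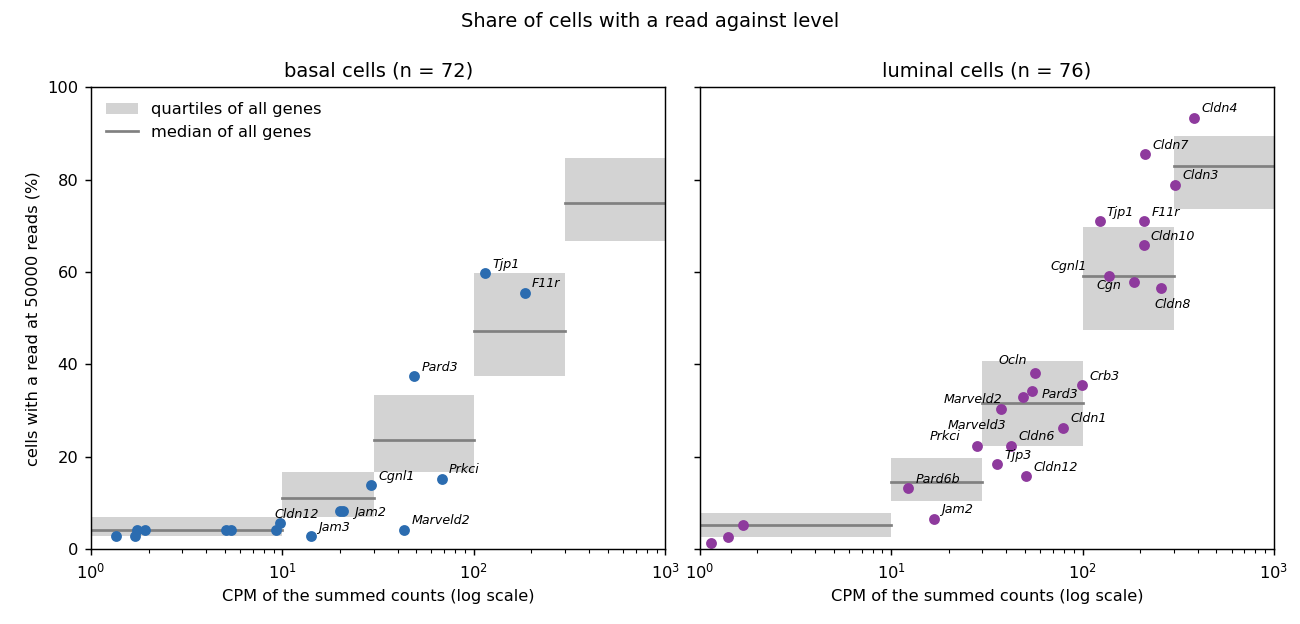
Share of cells with a read after thinning to 50000 reads (y axis, percent) against CPM of the summed counts (x axis, log scale) for the genes of the list at 1 CPM or more, in 72 basal cells (left) and 76 luminal cells (right). Grey lines and bands are the median and quartiles over all genes past the filter in bins of CPM, and names are given from 10 CPM. Luminal Cldn4 and Cldn7 lie above the band of their bin and basal Marveld2 lies far below it.

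Correlations between genes over luminal cells were mostly near 0. Over 210 pairs of 21 genes in 76 luminal cells at 50000 reads, Spearman's rho had a median of 0.05 and ran from -0.23 to 0.41, and 7 pairs were beyond 0.3 in size. The values of a cell share 1 library and its depth, and in counts this sparse values near 0 do not show that genes vary apart and weak ones carry no finding. Cldn4 had the highest values, with Cldn10 (0.41, and 0.38 and 0.43 on plates B and C) and with Cldn7 (0.40, and 0.52 and 0.34). Cldn8 and F11r had 0.39, and Cldn8 itself had 0.31 with the reads per cell.

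Cldn1 and Cldn10 had opposite signs against both sets of luminal subtype markers. Against the summed level of 8 luminal progenitor markers rho was 0.38 for Cldn1 and -0.31 for Cldn10, and against 8 hormone-sensing markers it was -0.25 and 0.32. On plate B (24 cells) the progenitor values were 0.19 and -0.18, and on plate C (52 cells) 0.46 and -0.36. The hormone-sensing values were -0.32 and 0.09 on plate B, and -0.19 and 0.43 on plate C, so that for Cldn10 the plate B value was close to 0. With the reads per cell, rho was -0.16 for Cldn1 and 0.07 for Cldn10. Both marker sums had a rho of -0.52 with each other, so the signs against them are not separate observations. Other genes had values of like size, such as Pard6b (-0.30 against hormone-sensing markers) and Cgnl1 (0.30 against progenitor markers). These are descriptions over cells of 1 sample.

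A wider list of 50 junction and polarity genes, of which 41 passed the filter, held genes called in both directions. There were 11 higher in luminal cells, beside 21.5% of all genes past the filter, and 5 higher in basal cells, beside 10.2%, shares near the background. Another 7 were shared, 16 differed with the plate and 11 were low. The luminal genes of largest ratio at 10 CPM or more were Llgl2 (20.4 CPM in luminal cells, ratio 4.31), Dlg3 (3.77), Pard6a (3.03), Mark2 (1.92) and Tjap1 (1.91), the last with 0.76 on plate B and no call. Of these, Dlg3 had 63.2% and Tjap1 59.8% of the luminal reads in 1 cell, without which the ratios were 2.40 and 0.79. Pard6a had all 110 of its basal reads in basal cell 20 and a ratio of 4.23 without it, and 33.3% of its luminal reads in 1 cell and 2.50 without that one. Mark2 had 45.6% of its basal reads in 1 cell and a ratio of 2.65 without it. Llgl2 encodes a basolateral polarity protein of the Scribble group, Dlg3 a membrane scaffold of the Dlg family and Mark2 the Par-1 kinase.

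The basal genes of largest ratio were Pard6g (-4.71), Mpdz (-2.74), Cldnd1 (-1.98), Amotl1 (-1.77) and Amot (-1.58), the last with 1.12 on plate B and no call. Amot had 696 of its 846 basal reads (82.3%) in 1 cell and a ratio of 0.40 without it. Amotl1 had 6833 of its 13410 plate B basal reads in basal cell 92. Without that cell its plate B ratio was -0.68 and the call was lost. Mpdz had 43.8% of its basal reads in basal cell 85 and fell from 161 to 91.5 CPM without it, a ratio of -1.94. Basal Mpdz was 406 CPM on plate B and 38.2 CPM on plate A. Between plates C and A the Mpdz ratio was -0.40. Pard6g was at 136 CPM in the basal and 4.26 CPM in the luminal population, and a read was present in 48.6% of basal and 3.95% of luminal cells. In the Par6 family Pard6g was called higher in basal cells, and Pard6b and Pard6a in luminal cells. Pard6a had 63 luminal reads (1.71 CPM) on plate B. Without the top plate B cell of each population its plate B ratio was 0.82. Of the lethal giant larvae pair, Llgl1 was at 43.6 CPM in the basal and 17.4 CPM in the luminal population, and Llgl2 at 0.0832 and 20.4 CPM. With the counts of this list near the background, these are descriptions of single genes. The Llgl1 call is lost without its top basal cell, at -0.96 over the whole set and 0.08 on plate B. It is also lost without the wells with endothelial markers, at -0.81 on plate B. Mpdz is the multi-PDZ scaffold MUPP1, and Cldnd1 (376 and 94.6 CPM) is a claudin-domain protein. The adhesion receptor gene Cxadr (458 and 397 CPM) was shared, with a ratio of 0.13 over the whole set and 2.08 on plate B without its top basal cell.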

How the data were processed

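The authors aligned the reads to mm10 with Subread and assigned them to genes with featureCounts, using the RefSeq annotation built into Rsubread, and deposited raw counts for each cell. Strand and multi-mapping settings are not given in the sources used here, so overlapping genes and close relatives may share reads. The series-wide table was not used here. Of 27179 identifiers, 25275 matched a symbol in RefSeq (GRCm38.p6), and the other 1904 held 1.94% of reads.

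Genes of the mitochondrial genome (15) and of ribosomal proteins (124) were dropped. The study's limits were applied: 50000 reads and 1000 genes for a basal cell, 100000 reads and 1500 genes for a luminal cell, and 1 CPM in at least 3 cells for a gene. Capture sites were inspected by microscope in the study, and no doublet caller was run on 186 cells. Counts were summed per population, ratios were computed in Python 3.11.15 with NumPy 2.4.6, and the ratio step was tested on simulated data. The simulated counts were Poisson draws with the same gene proportions in every cell of a population. They therefore could not show how the step behaves where 1 well holds most reads of a gene or where plates differ. Genes of the list at 10 CPM or more in a population were described in full (22 genes), and the others by class, range or count. Of the wider list, the 5 per direction of largest ratio at 10 CPM or more were named. Genes of that list named beyond these (Llgl1, Cxadr) were chosen after their values were seen. The genes, lists and markers were chosen with earlier results of these data known. Alternatives covered scaling (edgeR 4.0.16 TMM factors, DESeq2 1.42.0 median-of-ratios factors), added CPM, filters, thinning, plates and single cells.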

Additional observations from a re-analysis of the deposited data

Results flagged for a closer look

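Wells below the depth limits, which enter none of the comparisons above, also held reads of the 30 genes. In the 24 basal wells below the limits the summed level was 587 CPM (498-686, 156 reads), beside 582 CPM in the basal cells that passed. In the 14 luminal wells it was 1886 CPM (1756-2023, 778 reads), beside 2588 CPM in those that passed. The level that 3 reads would give was 11.3 CPM in the basal and 7.27 CPM in the luminal wells. Reads of Cldn1, Cldn3, Cldn4, Cldn6, Cldn7 or Cldn8 were present in 11 of the 24 basal wells (16 reads) and in 13 of the 14 luminal wells (286 reads). The summed level of these claudins was 60.2 CPM in the basal wells, beside 20.3 CPM in the basal cells that passed. In the luminal wells it was 693 CPM, beside 1278 CPM in the luminal cells that passed.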

How the results depend on the processing

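The count of 15 genes higher in luminal cells stayed within 1.5 times under all 14 alternatives, and 13 of the 15 kept the call in each. The exceptions were Cldn23 (0.19 with 10 CPM added, 0.66 between plates C and A) and Pard6b (0.97 with 10 CPM added). The count higher in basal cells was 0 without the top cell of each population, and 3 both on plate B alone and between plates A and C. In the wider list the luminal count was 5 with 10 CPM added and 20 on plate B, and the basal count was 8 on plate B and 8 between plates A and C. The share of basal cells with a read of Cldn1, Cldn3, Cldn4, Cldn6, Cldn7 or Cldn8 was 29.2% without thinning. The median ratio of all genes shifted by -0.17 with median-of-ratios factors, -0.12 with 10 CPM added and 0.30 on plate B. Leaving out the wells with endothelial markers, or basal cells 13, 20 and 90, was chosen after seeing the data and left all of these counts within 1.5 times, and the share was 7.58% and 2.90%. Plate B alone without its top basal cell, also chosen after seeing the data, turned Prkci to 4.57. No paired analysis was possible because each population is 1 sample and no label ties a cell to a mouse. Depth limits the low genes: 0 of 72 basal cells with a read has an upper Clopper-Pearson limit of 4.99%. Outside plate B, plate and population cannot be told apart.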
